A study of Mus musculus with 32 samples.

Results

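Fetal liver haematopoietic stem cells (HSCs) that had lost only the full-length form of PRDM16 were compared with wild-type HSCs. These are 6 of the 32 RNA-seq libraries of the mouse series, 3 from knockout and 3 from wild-type cells, and they are the only libraries of 1 deposited count table. The sample titles call the genotypes 47bpKO and 47bpWT, without saying what 47 bp refers to. The knockout cells are labelled as PRDM16-KO murine HSCs that still express the short form (s-PRDM16) and lack the full-length form (f-PRDM16), and the wild-type cells are their own controls in the same table. All 6 libraries came from fetal liver cells sorted as Lin-, cKit+, Sca1+ and CD48-, with no treatment given. The gate does not use CD150, so it can hold CD48- multipotent progenitors besides HSCs. The sources give 3 independent replicates for each group but no embryonic age, embryo sex or pooling, and p-values cover library-to-library spread alone. A second fetal liver experiment of the series, 3 libraries labelled PRDM16-KO with no form named (called the total knockout here) and 3 of their own wild types, served for comparison.

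PRDM16 is a zinc finger regulator of transcription that HSCs need for their maintenance. Its full-length form carries an N-terminal PR domain, related to the catalytic domain of histone methyltransferases, and its short form lacks that domain. Its closest relative MECOM is likewise made with and without that domain, from separate transcription starts. Both genes are known for high expression in stem cells that declines as the cells differentiate.

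Libraries held 36408854, 44952448 and 38349320 counts in the knockout and 41289478, 44381220 and 35503288 counts in the wild type. The HSC label was checked against marker genes. Kit had 519, 419 and 433 counts-per-million (CPM, scaled by TMM) in knockout libraries, against 524, 531 and 416 CPM in wild-type libraries. Cd48, whose antigen the gate excluded, had 189, 54.6 and 59.8 CPM in the knockout, against 164, 21.5 and 41.7 CPM in the wild type, and passed as higher in paired DESeq2 (adjusted p = 0.0334), while its unpaired estimate was -0.41 without knockout library 1 and -0.026 without wild-type library 2. Cd3e of T cells stayed at or under 0.243 CPM and Alb of hepatocytes at or under 1.64 CPM in every library. Sums over whole lists were less even. The sum of 22 T and NK genes was 113, 298 and 220 CPM in the knockout, against 122, 103 and 157 CPM in the wild type. For 30 hepatocyte genes it was 428, 592 and 438 CPM in the knockout, against 545, 878 and 610 CPM in the wild type. For 30 monocyte, macrophage and dendritic genes it was 1049, 817 and 929 CPM in the knockout, against 1031, 543 and 597 CPM in the wild type. Granulocyte precursor transcripts were present throughout and were far from even. Their sum over 29 genes was 9825, 39675 and 63546 CPM in knockout libraries 1, 2 and 3, against 8998, 4313 and 26587 CPM in wild-type libraries 1, 2 and 3. Xist, the RNA of the inactive X chromosome, had 30.6, 61.8 and 77.1 CPM in the knockout, against 27.5, 0.295 and 0.624 CPM in the wild type. The sum of 4 Y-linked genes was 168, 77.9 and 116 CPM in the knockout, against 153, 178 and 262 CPM in the wild type. Granulocyte transcripts, Xist and the Y-linked sum were thus nearly level in pair 1 and moved with the genotype in pairs 2 and 3. Same-numbered libraries deviated together from their group means, so each number was taken as a pair. The labels give no pairing, so it rests on the same counts that were then tested. Compared directly, the libraries of pair 1 lay nearest each other (chi-square per degree of freedom 12.9). Knockout library 2 lay nearer wild-type library 3 than wild-type library 2 (69.4 against 222). Wild-type library 2 lay nearer knockout library 1 (169) than its partner. Of the wild types, library 3 lay nearest knockout library 3 (105), but each of these 2 lay nearer knockout library 2 (69.4 and 90.3).

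Prdm16 itself was lower in every knockout library than in any wild-type library. It had 6.53, 9.73 and 7.82 CPM in the knockout, against 13.4, 32.4 and 20.2 CPM in the wild type. The groups did not overlap, and the mean was 8.03 ± 1.61 CPM in the knockout and 22.0 ± 9.6 CPM in the wild type (SD, n = 3 each). The log2 change was -1.45 ± 0.36 with an adjusted p of 0.999 in edgeR's quasi-likelihood test with Benjamini-Hochberg adjustment, and -1.38 ± 0.19 with an adjusted p of 0.114 with the pairs as a block. In DESeq2 with the pairs as a block it passed (log2 -1.37, adjusted p = 6.94e-07). Counts were made per gene, so they do not separate full-length from short transcripts, and 229 to 441 counts remained in each knockout library.

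Over all 13631 genes tested, edgeR called 0 with groups alone (0% in each direction) and 0 with the pairs as a block. At an unadjusted p under 0.05 those fits held 357 (2.62%) and 1716 (12.6%) genes, and the lowest adjusted p with the block was 0.101. DESeq2 called 4 genes (0.0223%), all lower, without the block. With the block it called 524 of 13438 genes, 337 lower (2.51%) and 187 higher (1.39%). Of the 519 of these that edgeR also tested, 495 had an unadjusted p under 0.05 in edgeR's blocked fit. Leaving out pair 1, pair 2 or pair 3, the paired DESeq2 count was 1033, 59 or 42 genes, of which 424, 54 or 41 were among the 524. In the rest of the text, "passed" means an adjusted p under 0.05 in DESeq2 with the pairs as a block and all 6 libraries, and the blocked edgeR adjusted p of those it tested was 0.101 or more. Of the fits run on all 6 libraries, paired DESeq2 gave the most calls, and it was taken as the criterion with those counts known. Every call below therefore holds for that fit and not for edgeR, unless edgeR is named. Counts of passing genes in the lists below stand beside 2.51% lower and 1.39% higher over all genes. Over all genes tested in edgeR, 51.3% had a negative and 48.7% a positive change. The lists were chosen with earlier results of these data known, so their counts are descriptions.

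A group of 33 genes passed with all pairs and again without each pair in turn (0.246% of the genes tested), and all 33 were lower in the knockout. Prdm16 and its relative Mecom were among them. The others included the stem cell genes Hlf, Esam and Vwf, the basement membrane genes Col4a1, Col4a2, Col18a1 and Bcam, the signalling receptors Tgfbr3, Ephb4 and Fgfr3, the growth factor Igf1 and the cell cycle inhibitor Cdkn1c. They also held the actin and endocytosis genes Cttn, Eps8 and Itsn1. All 33 were lower in 3 of 3 pairs, which 20.8% of all genes tested were, and 5 had groups that did not overlap, against a background of 3.73%. Their median log2 change was -1.37. Since the repeats share libraries with the first fit, these values describe the genes and do not test them again. Their direction was fixed by the repeat without pair 3, which called 42 genes lower and 0 higher. No higher gene could therefore join the group.

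Prdm16, the targeted gene, is shown with the bases before its annotated start, and so are Mecom, Rasip1 and Fgd5. Mecom, Rasip1 and Fgd5 are the genes described first below among transcription factors, vascular genes and HSC markers, which is an order of the text and not a ranking. The sequences are the 250 bases before each start from RefSeq, build GRCm38.p6, read 5′ to 3′ on the strand of the gene. Capitals mark GGGCGG or its reverse CCGCCC (the GC box) and CGGAAG or its reverse CTTCCG (the ETS core). AGATAA and its reverse TTATCT (the GATA site) were searched as well. The motifs did not overlap one another in these windows.
Prdm16, chr4:154636874-154637123, minus strand: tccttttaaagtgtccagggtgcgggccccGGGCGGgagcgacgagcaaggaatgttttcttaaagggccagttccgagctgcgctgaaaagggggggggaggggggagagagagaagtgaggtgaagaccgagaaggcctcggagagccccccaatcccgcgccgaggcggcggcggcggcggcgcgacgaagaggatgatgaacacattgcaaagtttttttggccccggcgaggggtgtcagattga
Mecom upstream start, chr3:30509760-30510009, minus strand: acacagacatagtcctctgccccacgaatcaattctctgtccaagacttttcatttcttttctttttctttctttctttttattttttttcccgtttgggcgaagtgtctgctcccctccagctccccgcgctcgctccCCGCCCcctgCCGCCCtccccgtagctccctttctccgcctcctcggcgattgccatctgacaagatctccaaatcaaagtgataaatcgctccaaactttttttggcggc
Mecom downstream start, chr3:30013205-30013454, minus strand: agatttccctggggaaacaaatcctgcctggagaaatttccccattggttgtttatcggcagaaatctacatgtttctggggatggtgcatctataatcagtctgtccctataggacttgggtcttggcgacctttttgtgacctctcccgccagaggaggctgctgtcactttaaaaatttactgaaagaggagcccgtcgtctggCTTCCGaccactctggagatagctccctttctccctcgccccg
Rasip1, chr7:45627287-45627536, plus strand: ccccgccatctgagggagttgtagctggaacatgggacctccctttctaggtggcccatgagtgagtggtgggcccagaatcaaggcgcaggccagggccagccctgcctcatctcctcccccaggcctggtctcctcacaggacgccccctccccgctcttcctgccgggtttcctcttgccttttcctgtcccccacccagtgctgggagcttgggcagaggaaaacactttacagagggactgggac
Fgd5, chr6:91978715-91978964, plus strand: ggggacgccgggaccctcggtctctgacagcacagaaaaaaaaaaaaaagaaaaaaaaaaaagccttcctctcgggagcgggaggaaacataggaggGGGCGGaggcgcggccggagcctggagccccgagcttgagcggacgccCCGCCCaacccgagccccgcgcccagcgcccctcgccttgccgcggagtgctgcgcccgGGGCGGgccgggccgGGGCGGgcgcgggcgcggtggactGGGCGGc
Of 32851 such windows of the mouse genome, 32.7% held the GC box, 13.6% the ETS core and 9.99% the GATA site. Prdm16 held 1 GC box, the upstream Mecom start 2 and Fgd5 5. The downstream Mecom start held 1 ETS core, Rasip1 held none of the 3 motifs, and no window held the GATA site. The starts of Col4a1 (minus strand) and Col4a2 (plus strand) face away from each other and overlap by 22 bases at chr8:11312805-11312826, which read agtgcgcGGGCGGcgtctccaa on the plus strand and hold 1 GC box.

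Of 40 genes on a list of HSC identity genes, 39 were tested, and 37 had a negative log2 change, against 51.3% of all genes. Their median was -0.58 (-0.71 to -0.34 when libraries or pairs were left out), beside -0.01 over all genes. Of the 39, 19 passed as lower and 0 as higher, and 29 were lower in 3 of 3 pairs (20.8% of all genes were). This list was chosen with earlier results of these data known, so its counts are a description. In pair 1, whose knockout library had 1.09-fold the granulocyte sum and 1.11-fold the Xist level of its wild type, 33 of 39 were lower (51% of all genes were) and the median log2 ratio was -0.24. In pairs 2 and 3, where granulocyte transcripts and Xist were higher in the knockout, 37 and 33 were lower and the medians were -0.59 and -0.67. Their part in those larger values was not tested. In bulk libraries, fewer stem cells and less RNA per stem cell cannot be told apart.

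**Figure D1:**
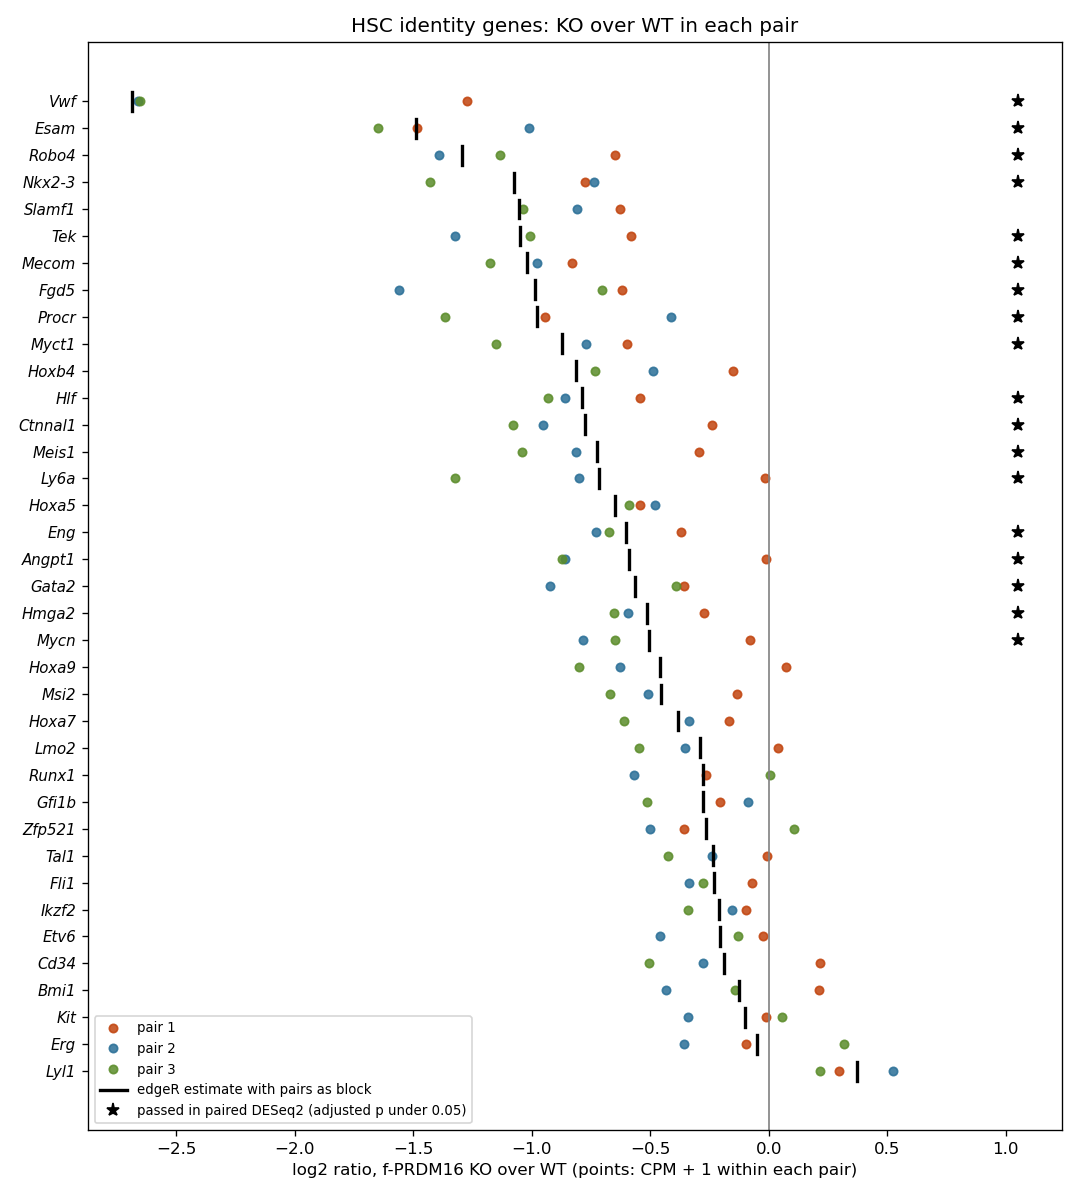
Log2 ratio of f-PRDM16 knockout over wild type for 37 of the 39 tested HSC identity genes. Points are the ratios of CPM + 1 in each pair, black bars the edgeR estimates with pairs as a block, and stars mark the 18 of these genes that passed in paired DESeq2; most points lie left of 0 and pair 1 lies nearest to 0 for many genes.

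The transcription factors of this list were led by Mecom, needed for long-term stem cells. It had 19.1, 57.8 and 39.0 CPM in the knockout, against 34.8, 115 and 89.4 CPM in the wild type. The groups overlapped because pair 1 was low in both, yet each knockout library was lower than its partner. The log2 change was -1.04 ± 0.52 without the block and -1.02 ± 0.11 with it in edgeR (adjusted p = 0.999 and 0.101), and it passed in paired DESeq2 (adjusted p = 1.51e-10). Hlf, a leucine zipper factor of primitive stem cells, had 59.8, 133 and 89.2 CPM in the knockout, against 87.6, 243 and 171 CPM in the wild type, and passed (adjusted p = 4.38e-07, paired DESeq2). The homeobox gene Meis1 had 86.1, 128 and 72.1 CPM in the knockout, against 106, 226 and 149 CPM in the wild type (adjusted p = 0.00143, paired DESeq2). All 3 factors were lower in 3 of 3 pairs. Gata2, a zinc finger factor of stem cells and mast cells, had groups that did not overlap, at 119, 125 and 107 CPM in the knockout and 154, 239 and 141 CPM in the wild type (adjusted p = 0.0121, paired DESeq2). Lyl1, a basic helix-loop-helix factor, stood at the other end with 12.1, 14.9 and 16.4 CPM in the knockout, against 9.63, 10.1 and 14.0 CPM in the wild type, and did not pass (adjusted p = 0.367, paired DESeq2).

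Several receptors, surface proteins and other genes of HSCs passed as lower. Fgd5, a guanine nucleotide exchange factor whose expression marks HSCs, had 26.1, 27.4 and 32.4 CPM in the knockout, against 40.6, 82.9 and 53.3 CPM in the wild type, without overlap (adjusted p = 0.000888, paired DESeq2). Esam, a junction protein used to sort HSCs, had 3.31, 30.3 and 11.4 CPM in the knockout, against 11.1, 62.2 and 37.8 CPM in the wild type (adjusted p = 3.52e-09, paired DESeq2). Procr, the protein C receptor, had 4.62, 27.6 and 12.8 CPM in the knockout, against 9.80, 37.1 and 34.6 CPM in the wild type (adjusted p = 0.00543, paired DESeq2). These last 2 genes were lowest in pair 1 and highest in pair 2 in both genotypes, so their groups overlapped while each pair differed. Tek, the angiopoietin receptor, had 6.70, 14.7 and 7.77 CPM in the knockout, against 10.5, 38.3 and 16.7 CPM in the wild type. Its ligand gene Angpt1 had 126, 95.3 and 86.5 CPM in the knockout, against 127, 174 and 159 CPM in the wild type, so that pair 1 hardly differed. Both passed (adjusted p = 0.00073 for Tek and 0.0499 for Angpt1, paired DESeq2). Ly6a, which encodes the Sca1 antigen of the gate, had 196, 325 and 123 CPM in the knockout, against 199, 567 and 309 CPM in the wild type (adjusted p = 0.032, paired DESeq2). Slamf1, the CD150 antigen that the gate left out, had 1.97, 4.52 and 2.03 CPM in the knockout, against 3.59, 8.69 and 5.21 CPM in the wild type, and missed the threshold (adjusted p = 0.0545, paired DESeq2). For Kit the paired DESeq2 adjusted p was 0.835. Cd34, an antigen of progenitors and some stem cells, had 868, 526 and 403 CPM in the knockout, against 747, 639 and 573 CPM in the wild type (adjusted p = 0.657, paired DESeq2).

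Vwf had the largest log2 change of the 33 genes. The gene encodes the von Willebrand clotting glycoprotein and marks stem cells with a platelet bias. It had 1.45, 3.35 and 1.72 CPM in the knockout, against 4.94, 26.5 and 16.1 CPM in the wild type, with no overlap. Its log2 change was -2.86 ± 0.66 in edgeR (adjusted p = 0.999), -2.69 ± 0.33 with the block (adjusted p = 0.107), and it passed in DESeq2 without the block too (adjusted p = 0.0152). Of 24 megakaryocyte and platelet genes tested in paired DESeq2, 5 passed as lower and 0 as higher, against 2.51% and 1.39% of all genes. The list's edgeR median over 25 genes was -0.02, -0.20 with the block, and ran from -0.43 without knockout library 3 to 0.12 without wild-type library 3. Besides Vwf they included Zfpm1, the GATA1 partner FOG1, with 38.6, 47.6 and 36.1 CPM in the knockout and 50.03, 89.1 and 68.9 CPM in the wild type, Mmrn1 (multimerin 1, a platelet and endothelial protein) and Pf4 (platelet factor 4). The unpaired Pf4 estimate was 0.20 without wild-type library 3. Zfpm1 and Mmrn1 had groups that did not overlap.

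**Figure D2:**
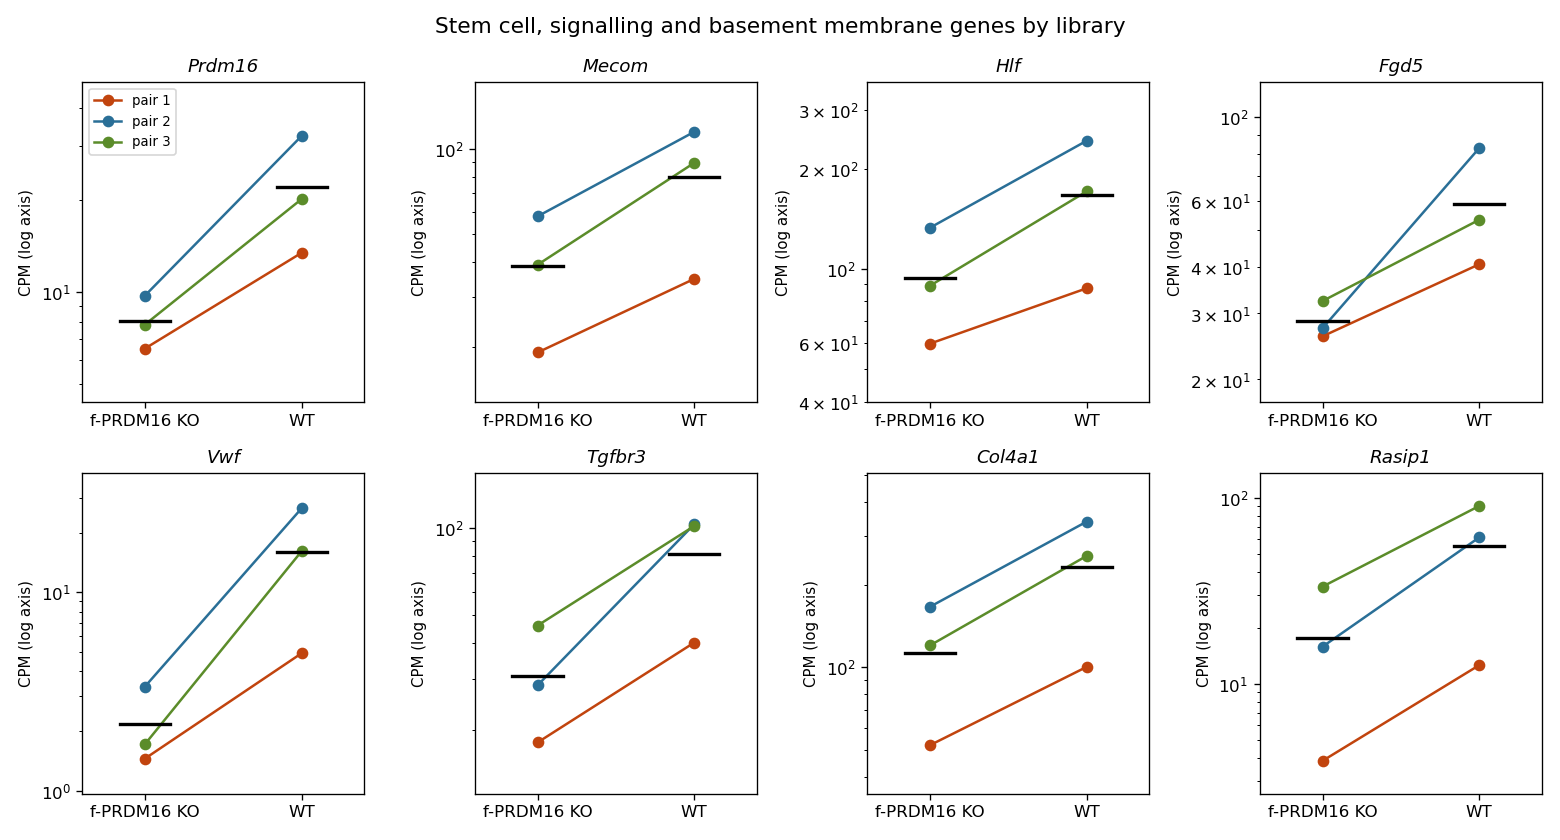
CPM on log axes in each library for 8 genes that passed in paired DESeq2, f-PRDM16 knockout left and wild type right. Lines join same-numbered libraries and black bars are means of 3; each knockout point lies below its wild-type partner.

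Basement membrane genes included both chains of the main collagen IV network. Col4a1, a collagen IV chain, had 52.1, 166 and 120.2 CPM in the knockout, against 100.4, 339 and 255 CPM in the wild type. Its partner chain Col4a2 had 41.6, 120.4 and 87.4 CPM in the knockout, against 82.1, 269 and 231 CPM in the wild type. Both were lowest in pair 1 in each genotype, and each knockout library was lower than its partner. The blocked edgeR log2 change was -1.02 ± 0.08 for Col4a1 and -1.18 ± 0.11 for Col4a2 (adjusted p = 0.101 for both), and without a filter on low counts both passed in that fit (adjusted p = 0.047), together with Rasip1. The strand of the counting was not given, so reads from the 22 bases where the starts of both collagen genes overlap cannot be told apart. Col18a1, the collagen that carries endostatin, had 64.4, 93.5 and 103 CPM in the knockout, against 108, 139 and 222 CPM in the wild type, with no overlap (adjusted p = 6.18e-06, paired DESeq2). Bcam, a laminin receptor, had 3.05, 13.5 and 8.21 CPM in the knockout, against 8.77, 33.3 and 22.5 CPM in the wild type, and Lamb2, a laminin chain, had 3.82, 11.6 and 6.91 CPM in the knockout, against 6.12, 34.5 and 19.4 CPM in the wild type. Of 17 basement membrane genes and receptors tested in paired DESeq2, 5 passed as lower and 0 as higher. Over the 19 tested in edgeR the median log2 change was -0.31, and -0.67 with the pairs as a block. It ran from -0.82 without pair 1 to -0.18 without pair 2, both in paired DESeq2. The laminin receptor chain Itga6 had 126, 90.4 and 137 CPM in the knockout, against 129, 102 and 92.5 CPM in the wild type, and did not pass (adjusted p = 0.81, paired DESeq2). That list was written after Col4a1 and Col4a2 had been seen to lead the paired comparison, so its count is a description.

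Of 17 endothelial genes tested in edgeR, 14 had a negative change, and the median was -0.55 (-0.71 to -0.43 when libraries or pairs were left out). Of the 16 tested in paired DESeq2, 6 passed as lower and 0 as higher, against 2.51% and 1.39% of all genes. Rasip1, a Ras-interacting protein of vessel formation that was not on the list, had 3.85, 15.8 and 33.4 CPM in the knockout, against 12.6, 61.4 and 90.6 CPM in the wild type (blocked edgeR log2 -1.70 ± 0.14, adjusted p = 0.101). Tie1, an orphan relative of the angiopoietin receptor, had 20.1, 47.4 and 33.9 CPM in the knockout, against 31.5, 105 and 68.6 CPM in the wild type (adjusted p = 8.12e-07, paired DESeq2). Egfl7, a secreted vessel and HSC factor, did not overlap at 143, 138 and 126 CPM in the knockout and 155, 212 and 227 CPM in the wild type. Ephb4, the ephrin-B2 receptor and likewise not on the list, had 1.97, 10.1 and 3.83 CPM in the knockout, against 4.67, 27.4 and 18.9 CPM in the wild type. The endothelial defining gene Cdh5 was low, with 0.371, 2.78 and 2.53 CPM in the knockout and 0.737, 2.29 and 2.68 CPM in the wild type. Another such gene, Kdr, had 9.75, 1.57 and 1.42 CPM in the knockout, against 11.2, 4.06 and 3.31 CPM in the wild type. The summed level of all 21 endothelial genes ran between 338 and 419.9 CPM in the knockout and between 397 and 638 CPM in the wild type, and the part of endothelial cells in these values was not tested.

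Among TGF-beta and BMP pathway genes, 2 coreceptors and a corepressor passed. Of 28 genes tested, 20 had a negative change and 3 passed, all lower, against 51.3% and 2.51% of all genes. The median was -0.20, -0.32 without wild-type library 1 and -0.078 without wild-type library 2. Tgfbr3, the coreceptor betaglycan, had 18.1, 28.6 and 45.9 CPM in the knockout, against 40.1, 103 and 101 CPM in the wild type (adjusted p = 1.34e-10, paired DESeq2). Eng, the coreceptor endoglin, had 35.5, 49.9 and 43.2 CPM in the knockout, against 46.2, 83.4 and 69.5 CPM in the wild type (adjusted p = 0.00285, paired DESeq2). Ski, a corepressor of SMAD signalling that also binds PRDM16, had 38.7, 76.4 and 61.4 CPM in the knockout, against 53.02, 100.4 and 81.3 CPM in the wild type (adjusted p = 0.0255, paired DESeq2). Lrrc32, a docking receptor for latent TGF-beta that was not on the list, was among the 33 genes. It had 1.23, 2.45 and 3.36 CPM in the knockout, against 3.51, 16.5 and 13.9 CPM in the wild type. Id3, an inhibitor of basic helix-loop-helix factors and a target of the pathway, had groups that did not overlap, at 9.73, 6.14 and 3.08 CPM in the knockout and 11.9, 13.5 and 34.2 CPM in the wild type, but did not pass (adjusted p = 0.348, paired DESeq2).

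Of 17 imprinted growth genes tested in paired DESeq2, 9 passed as lower and 0 as higher, against 2.51% and 1.39% of all genes. Over the 18 tested in edgeR, 14 had a negative change and the median log2 change was -0.69. It ran from -1.04 without knockout library 2 to -0.33 without wild-type library 3. Cdkn1c, the cyclin-dependent kinase inhibitor p57 that keeps HSCs quiescent, had 14.0, 52.5 and 51.4 CPM in the knockout, against 26.3, 95.8 and 112 CPM in the wild type. Each knockout library was lower than its partner (adjusted p = 8.33e-10, paired DESeq2). Igf2, a fetal growth factor, had 0.485, 3.13 and 5.02 CPM in the knockout, against 2.06, 5.83 and 14.9 CPM in the wild type (adjusted p = 0.00638, paired DESeq2). Dlk1, a fetal membrane protein, had 272, 356 and 156 CPM in the knockout, against 330.3, 588 and 346 CPM in the wild type (adjusted p = 0.00213, paired DESeq2). Plagl1, a zinc finger gene of the imprinted network, had 0.713, 2.01 and 0.888 CPM in the knockout, against 1.84, 4.67 and 4.204 CPM in the wild type (adjusted p = 0.0328, paired DESeq2). Grb10, an imprinted adaptor that restrains insulin-like growth factor signalling, had 80.1, 223 and 285 CPM in the knockout, against 103, 293 and 345 CPM in the wild type. It passed as lower (adjusted p = 0.0335, paired DESeq2), while its unpaired estimate was 0.044 without knockout library 1. The noncoding RNA Meg3 and the gene Ndn (necdin) also passed as lower. Igf1, an insulin-like growth factor that is not imprinted, was among the 33 genes with 0.200, 1.10 and 2.41 CPM in the knockout, against 1.15, 9.72 and 10.5 CPM in the wild type. Among 11 genes of the fetal LIN28 programme, 5 passed as lower and 0 as higher, Hmga2, Igf2bp2, Mycn and Plagl1 among them. Igf2bp2, an RNA-binding target of that programme, had groups that did not overlap, at 184, 126 and 138 CPM in the knockout and 198, 259.6 and 221 CPM in the wild type. Lin28b, the family member of fetal liver HSCs, had 45.1, 21.0 and 28.3 CPM in the knockout, against 47.4, 21.1 and 38.1 CPM in the wild type (adjusted p = 0.748, paired DESeq2). Lin28a itself had 1.94, 8.10 and 11.4 CPM in the knockout, against 1.597, 1.28 and 4.39 CPM in the wild type, and did not pass (adjusted p = 0.0577, paired DESeq2).

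Of 33 immediate early and stress genes, 5 passed as lower and 0 as higher, against 2.51% and 1.39% of all genes. The edgeR median was -0.28, but it ran from -0.83 without knockout library 3 to 0.23 without wild-type library 3, so its sign rested on that wild-type library; with the block it was -0.34. Klf6, a zinc finger early gene, had 93.7, 144 and 344 CPM in the knockout, against 141, 227 and 507 CPM in the wild type (adjusted p = 8.12e-07, paired DESeq2). Jund, an AP-1 subunit, had 168, 240.4 and 336 CPM in the knockout, against 212, 362 and 518 CPM in the wild type (adjusted p = 0.000651, paired DESeq2). Both genes differed more between pairs than between genotypes, with pair 3 highest, and the unpaired Klf6 estimate was 0.08 without wild-type library 3. Egr1, a zinc finger early gene of quiescent HSCs, had 157, 268 and 754 CPM in the knockout, against 267, 441 and 798 CPM in the wild type. It passed as lower (adjusted p = 0.0353, paired DESeq2), but its unpaired estimate was 0.025 without knockout library 1 and 0.15 without wild-type library 3. Gadd45b, a stress gene, ran the other way with 9.78, 15.3 and 16.3 CPM in the knockout and 8.67, 5.72 and 9.90 CPM in the wild type, and did not pass (adjusted p = 0.121, paired DESeq2). All 44 interferon response genes tested had a negative edgeR estimate, with a median of -0.46, and of -0.27 with the block. The unpaired median was 0.23 without wild-type library 2, so its sign rested on that library, and -0.80 without knockout library 2. Of the 45 tested in paired DESeq2, 2 passed as lower, Gbp3 and the PD-L1 gene Cd274, where 2.51% of all genes did. The pairs were not alike: 12 of the 44 genes were lower in pair 1, all 44 in pair 2 and 37 in pair 3, against 51%, 55.2% and 49.8% of all genes, and wild-type library 2 had the highest sum of the list.

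**Figure D3:**
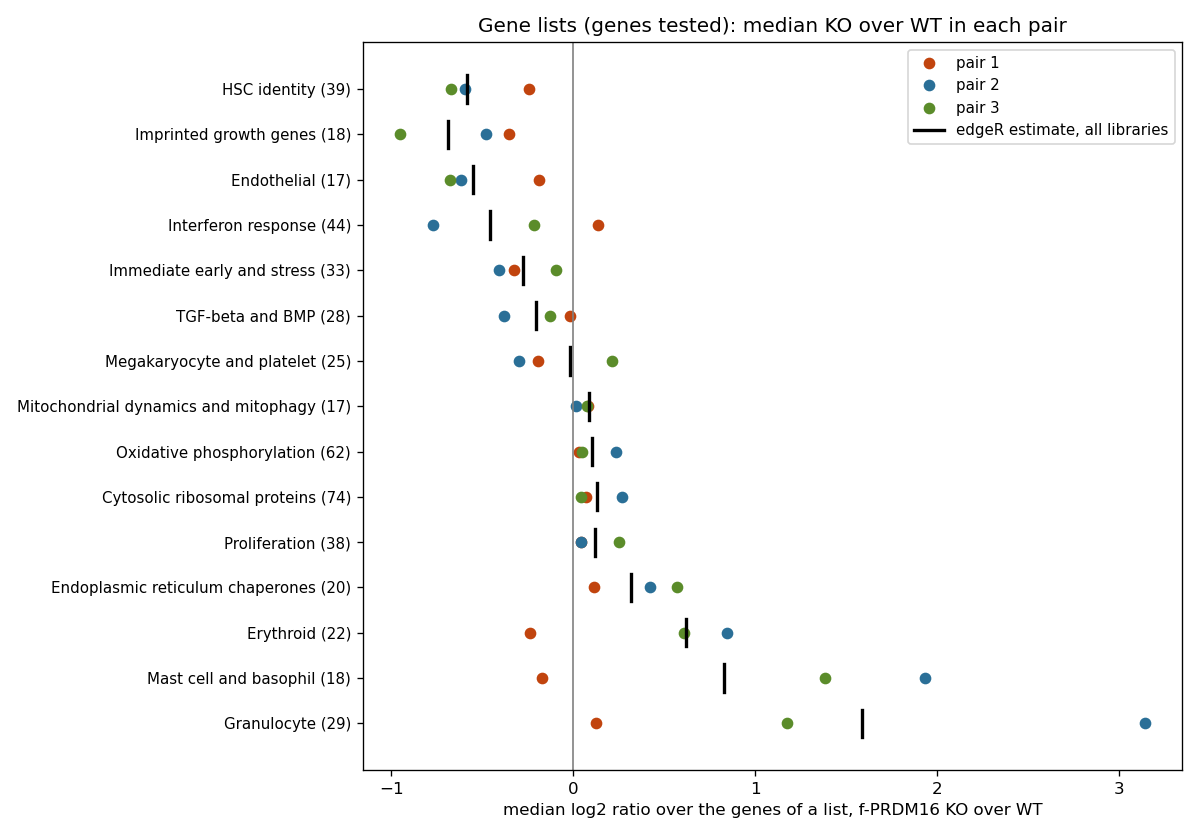
Median log2 ratio, f-PRDM16 knockout over wild type, for 15 gene lists with the number of genes tested in each. Points are medians of CPM + 1 ratios within each pair and black bars medians of edgeR estimates over all libraries; the HSC, imprinted and endothelial points lie left of 0 in all 3 pairs, while granulocyte, mast cell and erythroid points lie far to the right only in pairs 2 and 3.

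With all pairs fewer genes passed as higher (187) than as lower (337), but without pair 1 that order turned, with 640 higher and 393 lower in paired DESeq2 and 178 higher and 112 lower in paired edgeR. No higher gene passed in every repeat without a pair, as the repeat without pair 3 called 0 higher genes. Mmp9, a neutrophil gelatinase, had 6.82, 29.4 and 26.2 CPM in the knockout, against 4.10, 8.44 and 5.89 CPM in the wild type (adjusted p = 7.17e-05, paired DESeq2). Vcam1, an adhesion molecule, had 7.79, 62.9 and 43.5 CPM in the knockout, against 6.14, 10.1 and 14.4 CPM in the wild type. Prom1, the CD133 antigen, had 11.6, 50.5 and 85.7 CPM in the knockout, against 8.23, 10.5 and 41.0 CPM in the wild type. Lrrk2, a kinase expressed in myeloid cells, had 12.2, 38.7 and 58.2 CPM in the knockout, against 8.67, 9.19 and 23.2 CPM in the wild type. All 4 passed and all 4 differed least in pair 1, where the granulocyte sums lay closest.

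Other genes named among the 12 with the smallest paired DESeq2 adjusted p in the higher direction were App, the amyloid precursor gene, with 58.3, 92.5 and 198 CPM in the knockout and 46.1, 40.5 and 88.8 CPM in the wild type, and Fgl2, a fibrinogen-like secreted protein, with 95.4, 69.1 and 94.1 CPM in the knockout and 82.0, 25.8 and 41.7 CPM in the wild type. Golm1, a Golgi membrane protein, and Svip, an inhibitor of protein degradation at the endoplasmic reticulum, passed as well. Ccr2, a monocyte chemokine receptor, had 104, 11.1 and 14.5 CPM in the knockout, against 74.7, 4.78 and 4.58 CPM in the wild type, and the actin-severing gene Scin had 80.1, 11.2 and 5.74 CPM in the knockout, against 53.8, 6.25 and 2.60 CPM in the wild type. Both differed more between pairs than between genotypes. They were higher in 3 of 3 pairs, and their unpaired edgeR estimates turned negative without knockout library 1.

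Of 20 endoplasmic reticulum chaperones tested, 19 had a positive change, with a median of 0.32 (0.20 without wild-type library 2 and 0.56 without wild-type library 1), 8 passed as higher and 0 as lower, and 16 were higher in 3 of 3 pairs, against 16.9% of all genes. Hspa5, the main lumenal chaperone BiP, had 2490.1, 1524 and 2513 CPM in the knockout, against 2047, 1052 and 1653 CPM in the wild type. Calr, the lectin chaperone calreticulin, had 1804, 1482 and 2374 CPM in the knockout, against 1622, 785 and 1233 CPM in the wild type. Hsp90b1, the chaperone GRP94, had 1685, 1164 and 1773 CPM in the knockout, against 1491, 723 and 1124 CPM in the wild type. The adjusted p was 0.00101 for Hspa5, 0.00339 for Calr and 0.00634 for Hsp90b1 in paired DESeq2. Within pair 1 the list's median log2 ratio was 0.11 and 18 of 20 genes were higher (49% of all genes were), and within pairs 2 and 3 it was 0.42 and 0.57. That list, too, was written after Hspa5 had been seen among the leading genes.

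Of 38 proliferation genes tested, 1 passed as higher, where 1.39% of all genes did. The estimate was positive for 35, with a median of 0.12 (0.029 without wild-type library 3 and 0.20 without wild-type library 1). Within pairs 1, 2 and 3, the knockout value was the higher one for 33, 24 and 37 of the 38. That gene, Rrm2, a subunit of ribonucleotide reductase, had 691, 505 and 669 CPM in the knockout, against 579.9, 308 and 397 CPM in the wild type (adjusted p = 0.00134, paired DESeq2). Cdc6, a replication licensing factor, did not overlap at 159.9, 148 and 172 CPM in the knockout and 140.3, 119 and 112 CPM in the wild type, but did not pass (adjusted p = 0.0608, paired DESeq2). Mki67, which encodes the Ki-67 antigen, had 124, 108 and 148 CPM in the knockout, against 118, 77.8 and 92.6 CPM in the wild type (adjusted p = 0.0941, paired DESeq2). Ribosomal protein genes had a positive change in 73 of 74 members with a median of 0.13, and respiratory chain genes in 57 of 62 with a median of 0.11, and in neither list did a gene pass. Among all genes 48.7% had a positive change.

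**Figure D4:**
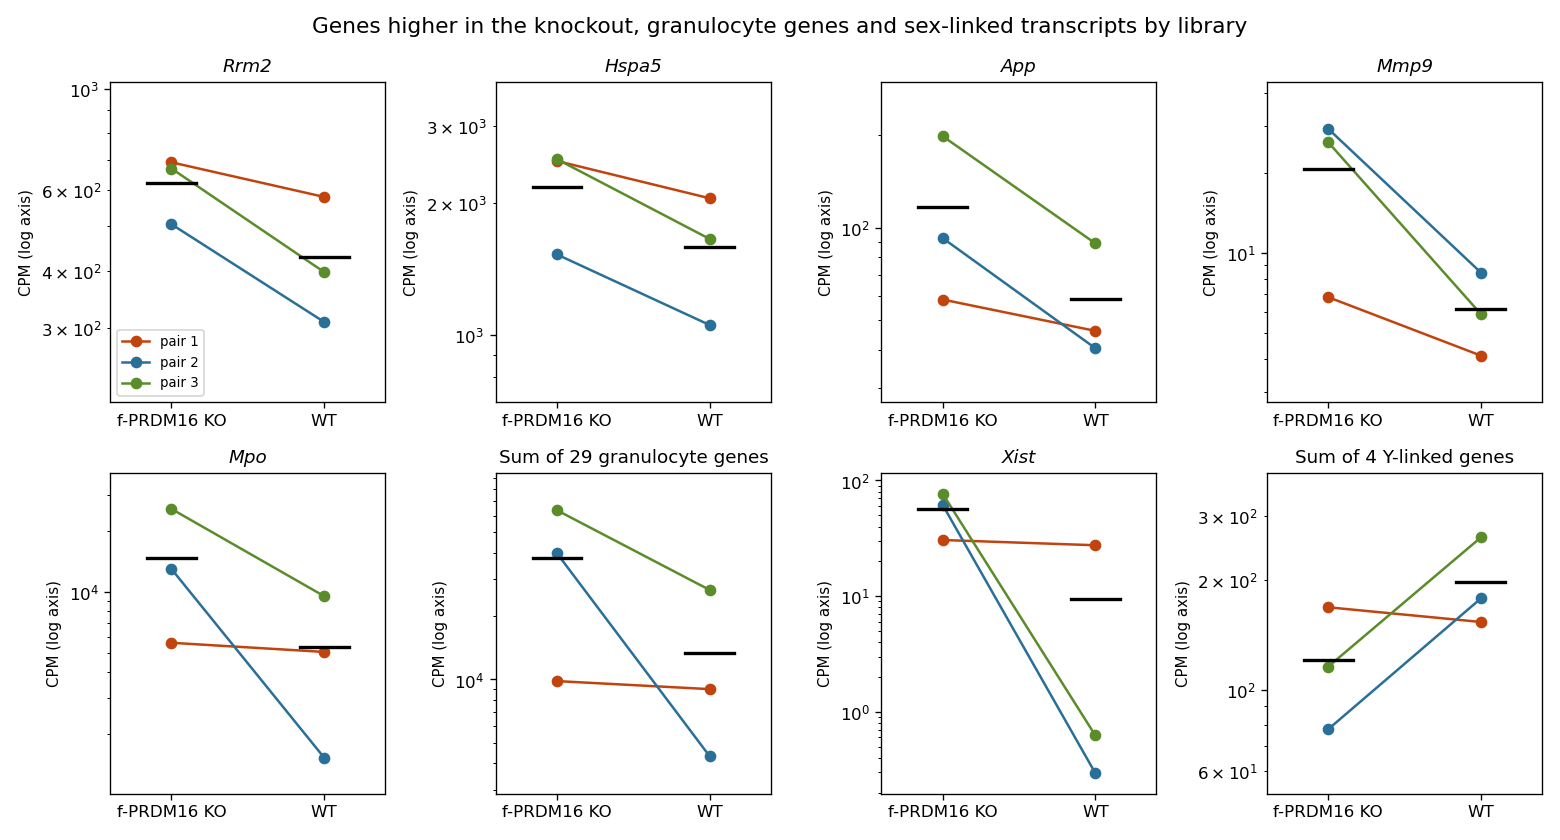
CPM on log axes for 5 single genes, the sum of 29 granulocyte genes, Xist and the sum of 4 Y-linked genes in each library, f-PRDM16 knockout left and wild type right. Lines join same-numbered libraries and black bars are means of 3; in pair 1 the granulocyte sum, Xist and the Y-linked sum are nearly level, and in pairs 2 and 3 they are not.

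Of 29 granulocyte genes, 2 passed as higher, Mmp9 and the resistin-like gene Retnlg, where 1.39% of all genes did. All 29 estimates were positive, with a median log2 change of 1.59, which was 2.76 without wild-type library 3 and 0.68 in paired edgeR without pair 2. Mpo, the peroxidase of primary granules, had 5602, 12936 and 25575 CPM in the knockout, against 5049.9, 1519.9 and 9502 CPM in the wild type. S100a8, a calcium-binding protein of neutrophils, had 394, 4225 and 5613 CPM in the knockout, against 338, 314 and 2488 CPM in the wild type. The knockout libraries were higher in 3 of 3 pairs for both, by little in pair 1 and most in pair 2 (adjusted p = 0.49 for Mpo and 0.567 for S100a8, paired DESeq2). Among 18 mast cell and basophil genes the median was 0.83, 1.35 with the block, and 0.58 to 2.16 when libraries or pairs were left out. Within pair 1 the direction was the other one, with a median log2 ratio of -0.17 and 16 of the 18 genes lower (51% of all genes were). Within pairs 2 and 3 the medians were 1.93 and 1.39. Of these genes 2 passed as higher, the basophil protease Mcpt8 and the IgE receptor chain Ms4a2, and 1 as lower, Gata2.

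Genes tied to PRDM16 by earlier work outside this series gave no uniform pattern. Mfn2, a mitochondrial fusion gene that f-PRDM16 is known to induce in HSCs, had 138, 124 and 149 CPM in the knockout, against 129.9, 114 and 112 CPM in the wild type (adjusted p = 0.386, paired DESeq2). Among 17 mitochondrial dynamics genes, 14 had a positive change, the median was 0.09 and none passed. Hgf, the hepatocyte growth factor gene, had 9.24, 7.04 and 11.96 CPM in the knockout, against 8.11, 5.39 and 7.95 CPM in the wild type (adjusted p = 0.466, paired DESeq2). Of 27 antioxidant genes, 1 passed as higher and 2 as lower, against 1.39% and 2.51% of all genes. Gpx1, a peroxide-reducing enzyme, had 1651, 2642 and 3030.3 CPM in the knockout, against 1587, 1384 and 1994 CPM in the wild type, and Nqo1, a quinone reductase, had 14.8, 30.5 and 12.4 CPM in the knockout, against 23.1, 39.6 and 23.8 CPM in the wild type. Of 22 partners of PRDM16, 1 passed as lower, Ski, where 2.51% of all genes did. The median was -0.04 (-0.09 to 0.04 when libraries or pairs were left out). Ctbp2, a corepressor that binds PRDM16, had 60.4, 49.2 and 66.1 CPM in the knockout, against 61.7, 49.6 and 65.1 CPM in the wild type (adjusted p = 0.987, paired DESeq2). Of 10 PRDM family genes tested, Prdm16 and Mecom passed and no other.

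The rule for naming genes on the unpaired test took those with the smallest unadjusted p whose groups did not overlap, and none of them passed in edgeR. On the lower side these were, besides Prdm16, Vwf and Fgd5, the adaptor gene Fyb, the tetraspanin gene Tspan8, the sulfotransferase gene Tpst1, the desaturase family gene Fads3, the clathrin adaptor gene Hip1, the translation regulator Impact and the glycine-cleaving enzyme gene Gldc. Fyb had 87.5, 84.7 and 74.3 CPM in the knockout, against 111, 136 and 128 CPM in the wild type, and Tspan8 had 6.65, 6.89 and 5.69 CPM in the knockout, against 10.7, 15.8 and 21.2 CPM in the wild type. Both groups were tight and apart (edgeR log2 -0.61 ± 0.13 for Fyb and -1.31 ± 0.30 for Tspan8, adjusted p = 0.999 for both). All of the lower genes named here passed in paired DESeq2. On the higher side were the histone chaperone gene Asf1b, the aminopeptidase gene Rnpep, the sphingosine phosphate phosphatase gene Sgpp1, the interleukin-1 coreceptor gene Il1rap, the quinone reductase gene Nqo2, and Sipa1l1, Ap5b1, Slc35a5, Zfp652 and Lpgat1. Asf1b had 125, 160.4 and 176 CPM in the knockout, against 109.7, 105 and 116 CPM in the wild type, and Rnpep had 254, 268 and 323 CPM in the knockout, against 223, 165 and 205 CPM in the wild type. Il1rap and Nqo2 did not pass in paired DESeq2 (adjusted p = 0.101 and 0.092), and the other 8 did.

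The total knockout gave a separate set of libraries in which to look at the same genes, with its own wild types and no shared control. Its summed granulocyte level was 1371, 2498 and 20629 CPM in the knockout, against 457, 605 and 2655 CPM in the wild type. Prdm16 there had 24.7, 23.8 and 11.3 CPM in the knockout, against 37.6, 39.7 and 24.9 CPM in the wild type. These counts per gene remain in every knockout library, and do not show by themselves which form was lost. All 33 genes had a negative log2 change there too, against 50.1% of the genes tested in that table, with a median of -0.53. Of the 33, 11 passed as lower in edgeR with the same-numbered libraries of that table as a block, where 0.603% of all genes did. Whether those numbers mark pairs was not checked, and without the block edgeR called 0 genes lower and 0 higher there. The 11 were Prdm16, Mecom, Hlf, Col4a1, Col4a2, Rasip1, Itsn1, Ndnf, Ltb, Pcp4l1 and Myo5c. Of all 337 genes lower in the f-PRDM16 knockout, 323 were tested in the total knockout, and 296 of them (91.6%) had a negative change. Of the 187 higher genes, 177 were tested there and 165 (93.2%) had a positive change, against 49.9% of all genes. The granulocyte list had a positive median in both knockouts, 2.89 in the total knockout. The part of granulocyte transcripts in the shared direction of the lower and of the higher genes was not tested.

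**Figure D5:**
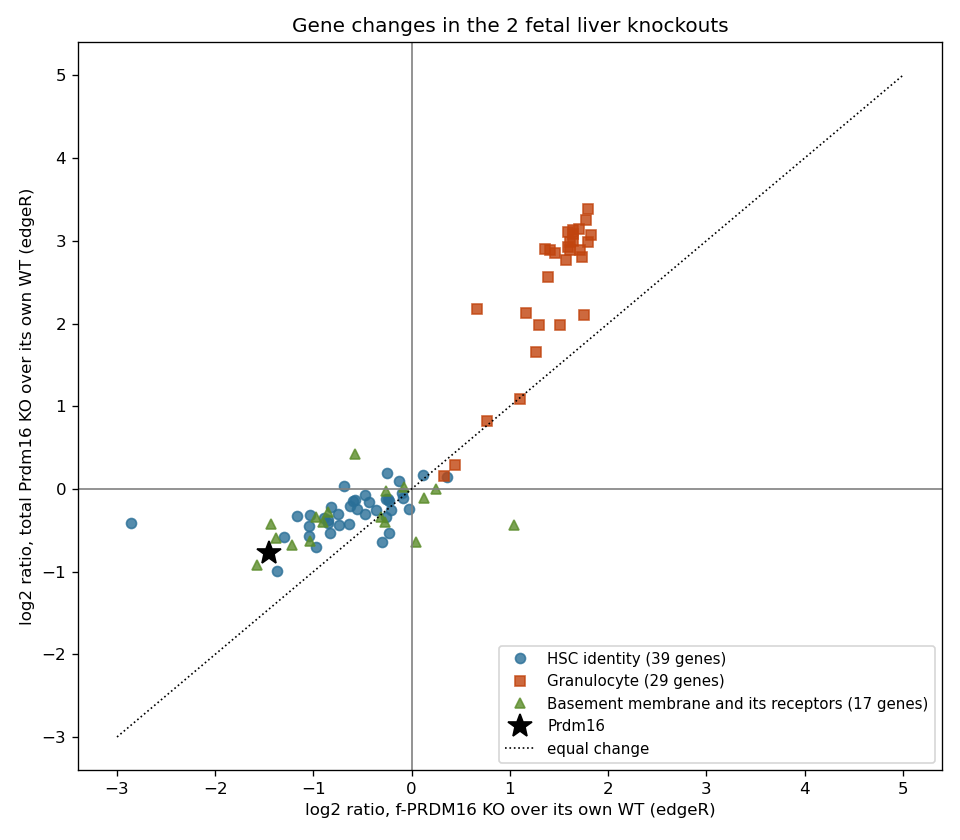
Log2 change in the f-PRDM16 knockout (horizontal) and the total knockout (vertical), each over its own wild type, for HSC identity, granulocyte and basement membrane genes and Prdm16, from unpaired edgeR fits. HSC genes lie mostly in the lower left and above the dotted line of equal change, and granulocyte genes lie in the upper right.

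No difference between the knockouts passed. In a joint edgeR fit of 15777 genes, 0 had an adjusted p under 0.05 for the f-PRDM16 effect minus the total effect (0% in each direction, lowest 1.00), 335 (2.12%) had an unadjusted p under 0.05, and DESeq2 also called 0. With the pairs as a block the count was 0 again (lowest adjusted p 0.250). The HSC list had a median of -0.58 in the f-PRDM16 knockout and -0.26 in the total knockout, and the median of the difference was -0.31, beside -0.04 over all genes. For Vwf the log2 change was -2.86 in the f-PRDM16 knockout and -0.41 in the total knockout, and for Mpo it was 1.46 in the f-PRDM16 knockout and 2.85 in the total knockout. Neither difference passed (adjusted p = 1.00 in edgeR for both). The genes with the smallest p for this difference were Tmem242, Kcnq1 and C1qtnf7 on the higher side and Map2, Ror2 and Tmem26 on the lower side. Of these only Tmem242 stood above 3 CPM in every library of both tables, with 37.0, 38.1 and 32.1 CPM in the f-PRDM16 knockout and 29.1, 28.7 and 31.7 CPM in its wild type.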

How the data were processed

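RNA was sequenced from 6 sorted fetal liver HSC libraries, prepared with a SMARTer low-input step and TruSeq poly-A selection per the labels' protocols. The submitters' processing notes list bcl2fastq 2.17, TopHat, DESeq and the mm9 build. How reads were counted, with which annotation and strand setting, is not given in the sources used here. The authors deposited raw read counts per gene, 24047 rows in the table used, of which 92 spike-in rows holding 1 count were dropped. All columns matched a sample, and no libraries were duplicates. The lowest chi-square per degree of freedom among these 6 was 12.9, for knockout library 1 against wild-type library 1. In the total knockout experiment it was 11.6, for wild-type libraries 1 and 2.

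Counts were tested by the two-sided quasi-likelihood test of edgeR 4.0.16 under R 4.3.3, with TMM scaling, its default low-count filter (filterByExpr), robust dispersion and Benjamini-Hochberg adjustment at 0.05, on knockout against wild type. DESeq2 1.42.0, limma 3.58.1 voom, other scaling, no filter, left-out libraries and a replicate block were alternatives. The labels give numbers but no pairing. Deviations of same-numbered libraries from their group means correlated at 0.624, 0.351 and 0.519 over 13631 genes, all above 0.1, and every other combination lay lower (highest 0.141), so the numbers were taken as pairs. Same-numbered libraries of the total knockout were blocked in the same way, but their pairing was not checked. The difference from the total knockout was tested as an interaction in a joint fit.

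A ± gives the standard error of a log2 change, or the SD of CPM values. Calls in the text are those of paired DESeq2, which gave the most calls and was taken as criterion with the counts known; edgeR, the main test, gave 0. The edgeR fits were tested on simulated data, and the DESeq2 fits were not. Precision is set by 3 libraries a group at 35503288 to 44952448 counts. Members and gene lists (30, plus 2 added after values were seen) were chosen with earlier results of these data known. Genes were named by smallest p among those at mean log2 CPM of 3 or more without overlap, up to 10 per direction, leaving out sex-linked, Gm-numbered and Rik names. Up to 4 members of each list and 3 per direction of the difference were added. The 12 smallest adjusted p per direction in paired DESeq2, the 33 genes passing in every paired DESeq2 fit, and further list members and known PRDM16 targets were chosen after their values were seen. Promoter sequences came from RefSeq tables of GRCm38.p6 and were not used with coordinates of the counts. Some list members are counted but not reported here by name. Figures used matplotlib 3.10.9.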

Additional observations from a re-analysis of the deposited data

Results flagged for a closer look

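Tmem242, a mitochondrial assembly factor, was higher in every f-PRDM16 knockout library than in any of its wild types, and lower in every total knockout library than in any of theirs. It had 37.0, 38.1 and 32.1 CPM in the f-PRDM16 knockout, against 29.1, 28.7 and 31.7 CPM in its wild type. In the total knockout it had 10.2, 10.7 and 10.7 CPM, against 21.6, 14.1 and 20.0 CPM in its wild type. The difference between the 2 changes was 1.07 on the log2 scale and did not pass in the joint edgeR fit (adjusted p = 1.00, and 0.441 with the pairs as a block).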

How the results depend on the processing

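The count of genes passing was 0 in edgeR and stayed 0 with DESeq2-type size factors, without a filter on low counts, with limma voom (338 at an unadjusted p under 0.05) and with the replicate block in edgeR or voom (1716 and 1778 at an unadjusted p under 0.05). It was 4 in DESeq2, 524 in DESeq2 with the replicate block, and 3 in edgeR with the replicate block and no filter. Leaving out libraries or pairs gave 0 to 1033 genes. The highest count, 1033, came from paired DESeq2 without pair 1, with 640 higher and 393 lower, and paired edgeR without pair 1 called 290, with 178 higher and 112 lower. The count for the difference between the knockouts was 0 to 3 over left-out libraries, with 3 (Tsix, Xist and Ror2) without wild-type library 1. For Prdm16 the log2 change ran from -1.71 to -1.07 when libraries or pairs were left out, and it passed with the replicate block in DESeq2 (-1.37). Leaving out libraries or pairs, Kit ran from -0.21 to 0.032, with 0.016 in paired edgeR and 0.032 in paired DESeq2 without pair 2. Ccr2 ran from -1.14 to 3.205 and Scin from -1.31 to 2.86, lowest without knockout library 1, and Klf6 from -1.29 to 0.079, highest without wild-type library 3. Over the same left-out libraries or pairs the sign also turned for Cd48 (-0.41 to 1.68, negative without knockout library 1 and, at -0.026, without wild-type library 2), Grb10 (-0.70 to 0.044), Egr1 (-1.23 to 0.15, and 0.025 without knockout library 1), Pf4 (-1.55 to 0.20), Kdr (-2.06 to 0.20), Lin28b (-0.53 to 0.087), Cd34 (-0.49 to 0.098), Itga6 (-0.10 to 0.29), Cdh5 (-0.50 to 0.48) and Ctbp2 (-0.12 to 0.11). Cdh5 and Ctbp2, near 0 in edgeR, were 0.01 and 0.0103 in DESeq2, 0.0084 and 0.0088 with DESeq2-type size factors, and 0.0058 and 0.0047 without a filter. Ctbp2 was also 0.0093 with the replicate block in DESeq2 and 0.0032 with the replicate block and no filter. Of these genes Klf6, Ccr2, Scin, Cd48, Grb10, Egr1 and Pf4 passed in paired DESeq2. Of the list medians the report prints, those of immediate early, interferon, megakaryocyte and PRDM16 partner genes changed sign when libraries or pairs were left out. The cause was not tested for any of these. The voom fits, the paired edgeR fit without a filter and the paired DESeq2 fits without a pair were chosen after seeing the data. Granulocyte transcripts and Xist differed with genotype in pairs 2 and 3, and pair 1 alone was nearly level in both.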
